A study of Mus musculus with 29 samples.

Results

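The genes described here encode the machinery of antigen presentation on major histocompatibility complex (MHC) class II molecules. They were chosen by name, with their CPM (read counts scaled to a common sequencing depth) in every mouse and group already known, so the values that follow describe the members and no test is drawn from them. There are 10 of them among the 55421 genes counted, and all 10 were found. They are Ciita, H2-Aa, H2-Ab1, H2-Eb1, Cd74, H2-DMa, H2-DMb1, H2-DMb2, H2-Oa and H2-Ob.

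RNA was measured in whole liver of female and male mice. The old mice were C57BL/6J, aged 20 months in females and 24 months in males. They received either vehicle (old vehicle) or HDM201 (old HDM201), an inhibitor of MDM2, the ubiquitin ligase that holds p53 at low levels, at 10 mg/kg by oral gavage each day for 14 days. The young mice were C57BL6/N, aged 5 months, and received vehicle (young vehicle), so that age and substrain cannot be told apart. Counts were analysed for 27 of the 29 labelled mice, 5 young vehicle, 4 old vehicle and 5 old HDM201 females, and 4 young vehicle, 4 old vehicle and 5 old HDM201 males. FPKM (fragments per kilobase of transcript, scaled for depth) were given for all 29, including young vehicle male 5 and old vehicle male 1, which were not in the counts. Between 16485900 and 23570458 reads were counted on genes per mouse. Xist, expressed from the inactive X chromosome, stood between 273 and 511 CPM in females and at most 0.317 CPM in males, which fits the labelled sex of every mouse with counts. Nnt was looked at as a check of substrain. It stood at 2.24 to 4.41 CPM in young vehicle and 2.18 to 2.91 CPM in old vehicle females, which overlapped. In males it stood at 2.40 to 3.69 and 1.61 to 2.39 CPM. The substrains are therefore given as stated for the mice and are not settled by the counts. The hepatocyte markers together took 79055 to 161289 CPM per mouse.

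MHC class II molecules are pairs of an alpha and a beta chain that present peptides from internalised material to CD4+ T cells. B cells, dendritic cells and macrophages carry them constitutively or after activation, and hepatocytes carry little under normal conditions. The invariant chain CD74 guides new pairs to endosomes, where cathepsins trim it to a short peptide, H2-DM exchanges that peptide for an antigenic one, and H2-DO, found mainly in B cells, restrains H2-DM. CIITA switches on most of the other genes of the group, by joining a complex of RFX, CREB and NF-Y proteins. That complex sits on an X box and a Y box in front of its target genes.

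These boxes can be read in the promoters. RefSeq promoter sequence of GRCm38.p6, the assembly also called mm10, was matched by symbol for 7 of the 10 members, and H2-Ab1, Cd74 and Ciita are named only. Windows of 300 bases, from 250 before to 50 after the annotated start, were searched on both strands for the Y box letters TGATTGG and for a core of the X box, AGNAAC. The letters were chosen from textbook knowledge and after the sequences had been seen. A Y box lay in the window of 6 members, on the gene's own strand in each, and 7.82% of all 32851 promoter windows hold one on either strand. The X box core alone is common and occurs in 48.1% of windows. The core followed by a Y box on the same strand, with first bases 20 to 40 apart, occurred in 4 members and in 0.204% of all windows. The 2 windows of H2-DMa held no Y box, which says only that these letters are not there. The 140 bases before the start are shown for the 6 members with a Y box, because they show the shared element, and capitals mark matches on the gene's strand.
H2-Aa, chr17:34287824-34287963, minus strand: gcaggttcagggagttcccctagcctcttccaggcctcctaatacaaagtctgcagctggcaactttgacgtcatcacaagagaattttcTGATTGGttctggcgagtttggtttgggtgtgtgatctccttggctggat
H2-Eb1, chr17:34305727-34305866, plus strand: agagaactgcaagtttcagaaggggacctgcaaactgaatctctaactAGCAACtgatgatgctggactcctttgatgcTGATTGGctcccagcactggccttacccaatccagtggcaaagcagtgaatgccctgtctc
H2-DMb1, chr17:34153051-34153190, plus strand: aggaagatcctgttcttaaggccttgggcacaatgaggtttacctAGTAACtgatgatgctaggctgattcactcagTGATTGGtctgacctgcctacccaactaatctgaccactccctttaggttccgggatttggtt
H2-DMb2, chr17:34145109-34145248, plus strand: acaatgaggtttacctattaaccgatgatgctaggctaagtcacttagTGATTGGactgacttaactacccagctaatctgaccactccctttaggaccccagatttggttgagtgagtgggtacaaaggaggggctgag
H2-Oa, chr17:34092239-34092378, plus strand: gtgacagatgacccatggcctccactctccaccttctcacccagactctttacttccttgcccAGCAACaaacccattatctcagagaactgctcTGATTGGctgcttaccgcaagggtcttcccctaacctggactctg
H2-Ob, chr17:34238765-34238904, plus strand: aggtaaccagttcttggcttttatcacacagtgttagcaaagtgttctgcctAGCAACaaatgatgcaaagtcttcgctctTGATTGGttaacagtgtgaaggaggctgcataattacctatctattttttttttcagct

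In H2-Eb1 the core began 92 bases before the start and the Y box 61 bases before it. The distance between the first bases was 31 in H2-Eb1, 32 in H2-DMb1, 32 in H2-Oa and 29 in H2-Ob. H2-Aa and H2-DMb2 had the Y box alone by these letters, at 50 and 92 bases before the start. H2-DMb1 and H2-DMb2 are close copies of one gene, so the division of reads between them is uncertain.

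**Figure D1:**
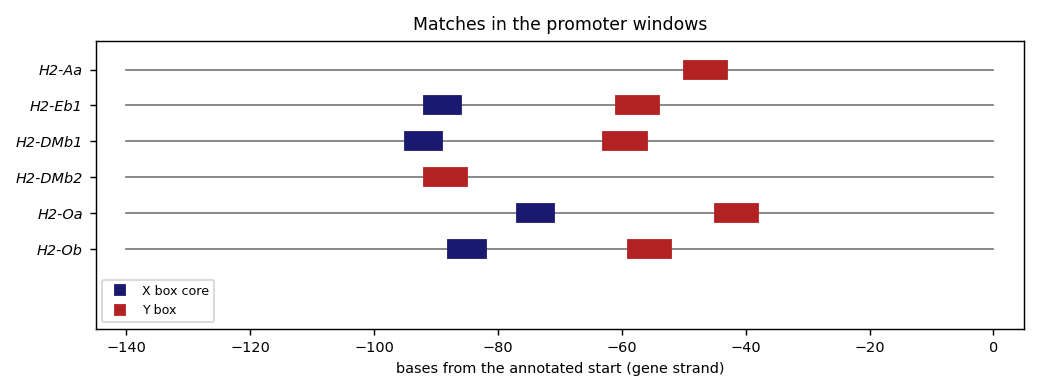
Positions of the X box core and the Y box (boxes on each line) in the 140 bases before the annotated start of 6 class II genes, in bases from the start on the gene's strand. The core lies 29 to 32 bases before the Y box in H2-Eb1, H2-DMb1, H2-Oa and H2-Ob. By the letters searched, H2-Aa and H2-DMb2 show a Y box alone, which does not say that they lack an X box.

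Per length, Cd74 was the most abundant member and Ciita and H2-Oa were the least. In young vehicle females the mean FPKM was 56.6 ± 8.54 (SD, n = 5) for Cd74, 20.9 ± 2.85 for H2-Aa, 20.6 ± 4.83 for H2-Ab1 and 18.9 ± 5.52 for H2-Eb1. The peptide exchange genes stood lower, at 3.67 ± 0.532 for H2-DMa, 2.01 ± 0.244 for H2-DMb1 and 0.544 ± 0.188 for H2-DMb2. H2-Ob stood at 0.556 ± 0.202, H2-Oa at 0.189 ± 0.0471 and Ciita at 0.176 ± 0.0651 FPKM. The 3 classical chains did not differ beyond their spread, nor did H2-Ob from H2-DMb2 or H2-Oa from Ciita. In old vehicle females the order was nearly the same, from Cd74 at 157 ± 27.1 FPKM (SD, n = 4) through H2-Ab1 at 55.3 ± 9.60 and H2-DMa at 7.47 ± 1.05 to Ciita at 0.756 ± 0.183 and H2-Oa at 0.653 ± 0.275.

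The first question of the design is how old livers differ from young ones. In females every member that passed the filter on low counts was higher in old mice, by 1.81-fold for H2-DMa to 4.07-fold for Ciita. In males the 10 members were 2.14-fold to 6.63-fold higher with larger SEs. All CPM values are scaled by TMM factors over the 27 mice.

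Ciita, the activator of class II transcription, stood in young vehicle females 1 to 5 at 1.01, 0.769, 1.30, 1.03 and 1.62 CPM. In old vehicle females 1 to 4 Ciita stood at 6.06, 4.23, 4.54 and 3.75 CPM. The groups did not overlap, and the fitted log2 fold change was 2.02 ± 0.23 (SE), the largest among the members in females. In young vehicle males 1 to 4 Ciita stood at 0.604, 2.00, 1.14 and 1.49 CPM, and in old vehicle males 2 to 5 at 4.33, 2.90, 3.79 and 1.27 CPM. Old vehicle male 5 lay within the young range, and the log2 fold change was 1.23 ± 0.42.

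H2-Ab1, the beta chain of the I-A molecule, stood at 21.9, 20.4, 19.0, 31.3 and 26.7 CPM in young vehicle females and at 65.0, 62.4, 51.0 and 47.3 CPM in old vehicle females. The groups did not overlap (log2 fold change 1.27 ± 0.14). In males the values were 9.43, 19.5, 9.92 and 17.9 CPM in young vehicle mice 1 to 4, and 58.9, 39.5, 64.1 and 27.7 CPM in old vehicle mice 2 to 5. The lowest old male again lay above the highest young one, and the log2 fold change was 1.76 ± 0.31. H2-Aa, the alpha chain of I-A, and H2-Eb1, the beta chain of I-E, were close to H2-Ab1 in level. H2-Ea-ps, the alpha chain gene of I-E and a pseudogene by its symbol, had no count outside old HDM201 males. The RNA of H2-Eb1 therefore does not show an I-E molecule. In young vehicle, old vehicle and old HDM201 females H2-Aa ranged from 17.9 to 26.1, from 38.7 to 57.3 and from 18.4 to 33.0 CPM. H2-Eb1 ranged from 14.1 to 26.9, from 38.1 to 60.2 and from 18.9 to 30.1 CPM. Old vehicle females stood above the other females in both genes. The log2 fold changes of H2-Aa and H2-Eb1 with age were 1.12 ± 0.14 and 1.34 ± 0.19 in females and 1.56 ± 0.30 and 1.65 ± 0.32 in males, with no overlap in either sex.

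Cd74, the invariant chain, stood at 75.6, 60.3, 57.6, 82.0 and 79.5 CPM in young vehicle females and at 188, 198, 164 and 141 CPM in old vehicle females (log2 fold change 1.31 ± 0.13). In males it stood at 29.4, 71.3, 38.5 and 51.5 CPM in young vehicle mice and at 161, 98.0, 187 and 80.2 CPM in old vehicle mice (log2 fold change 1.48 ± 0.32). Neither pair of groups overlapped. Within a mouse the ratio of Cd74 to H2-Ab1 in CPM lay between 2.48 and 3.88 over all 27 mice, so these 2 genes kept nearly the same proportion while their levels moved.

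Of the genes for peptide exchange, H2-DMa had the smallest log2 fold change in females, 0.86 ± 0.14, from 3.53 to 4.60 CPM in young vehicle mice to 5.90 to 8.11 CPM in old vehicle mice. Its ratio to H2-Ab1 had a median of 0.176 in young and 0.126 in old vehicle females, and of 0.220 in young and 0.124 in old vehicle males. H2-DMb1 and H2-DMb2, the alternative beta chains, were higher by 1.44 ± 0.18 and 1.36 ± 0.26 on the log2 scale in females and by 1.34 ± 0.43 and 2.19 ± 0.46 in males. H2-DMa overlaps Brd2 on the other strand in the annotation, and counting by strand is not stated, so reads of the shared stretch are uncertain. Of the H2-DO chains, which restrain exchange, H2-Ob was higher by 1.49 ± 0.30 on the log2 scale in females and by 1.09 ± 0.36 in males.

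H2-Oa was close to the limit of detection. It had 2 to 5 counts per mouse in young vehicle females and did not pass the filter there. The CPM were 0.126 to 0.287 in young and 0.263 to 0.885 in old vehicle females, and the groups overlapped. In males the young vehicle mice had 0 to 5 counts and the old vehicle mice 10 to 14. Young vehicle male 2 had 0 counts, which allows up to 0.171 CPM, the value of 3 counts there, from counting error alone. The log2 fold change in males, 2.73 ± 0.58, rests on these counts.

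Over the group, 9 of the 10 members passed the filter in females, 9 were called higher in old mice and the groups of 9 did not overlap. Of all 14233 genes tested 16.8% were called higher in old females and 12.3% were higher without overlap. In males 10 passed the filter, 6 were called higher (H2-Ab1, H2-Aa, H2-Eb1, Cd74, H2-DMb2 and H2-Oa) and the groups of the same 6 did not overlap, beside 2.76% of 13755 genes called higher and 7.18% higher without overlap. H2-DMb2 had 2 to 9 counts in young and 14 to 48 in old vehicle males, so H2-DMb2 and H2-Oa passed the filter of 10 counts only through the old mice, in which they were higher. Because the members were selected on these values, nothing is read from the counts. The median log2 fold change of the members was 1.34 in females and 1.52 in males, beside 0.0094 and -0.015 over all genes tested. The male count depended on single mice. It was 1 without old vehicle male 2, 0 without old vehicle male 4, 3 without young vehicle male 1, 0 without young vehicle male 3 and 2 without young vehicle male 4, and it was 10 when all 6 groups entered one fit.

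**Figure D2:**
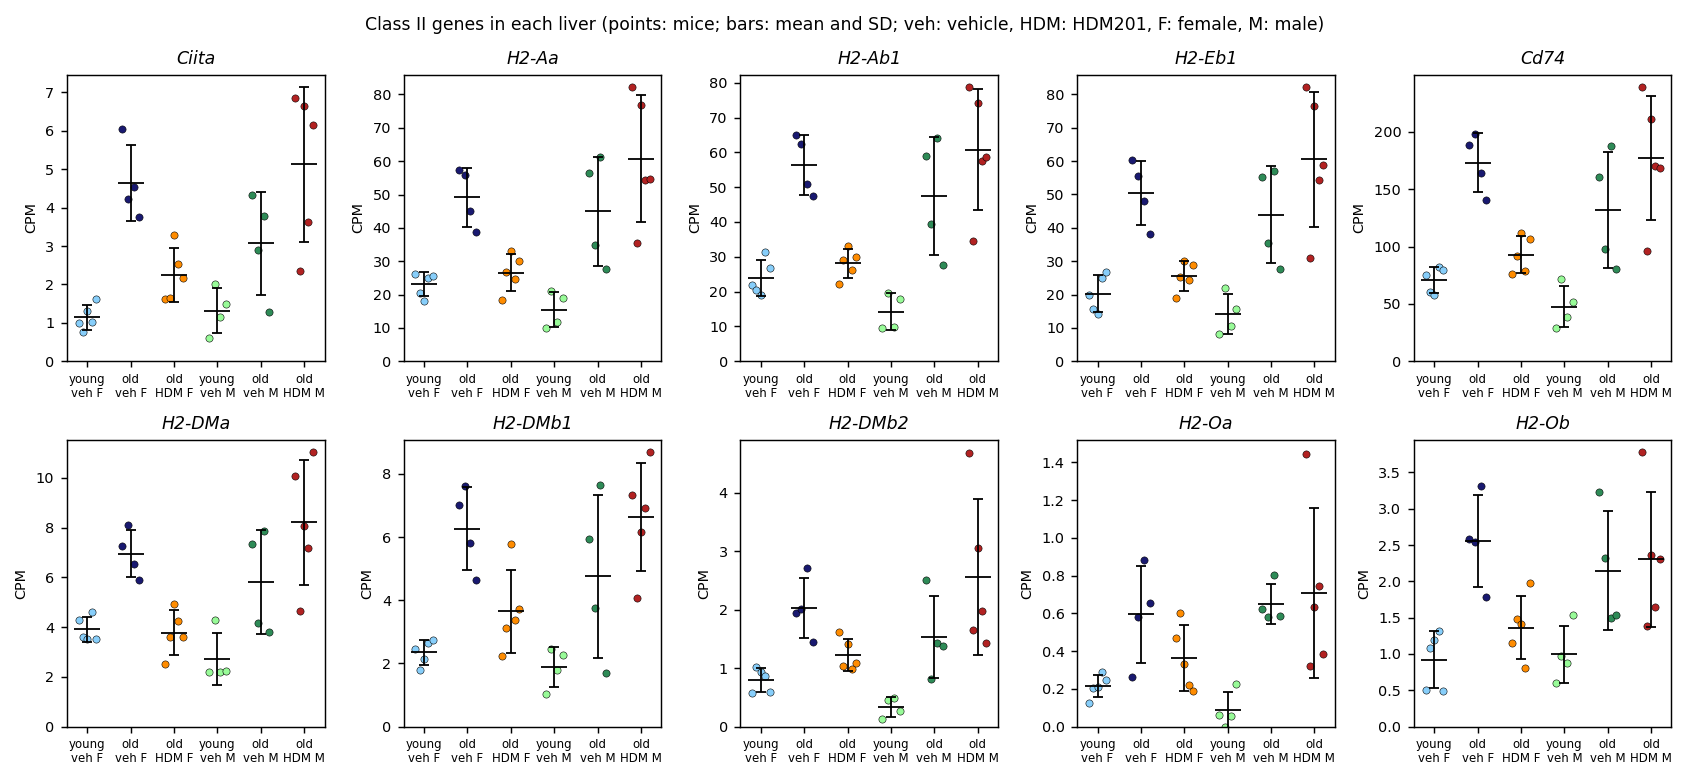
CPM of the 10 class II genes (y axis, from 0) in each mouse (points), by group, with the mean and SD as bars. Old vehicle females lie above young vehicle females for every gene but H2-Oa, old HDM201 females lie below old vehicle females for 6 genes, and the groups of old males overlap for all 10.

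The second question is what HDM201 changed in old liver. In females all 10 members were lower with HDM201, at 0.483 to 0.599 times the vehicle level. In males the fitted level was 1.08-fold to 1.67-fold that of vehicle, with groups that overlapped for each gene. The sign rested on single mice for H2-Oa and H2-Ob. H2-Oa had a log2 fold change of 0.13 with all mice and -0.30 without old HDM201 male 1, and H2-Ob one of 0.11 with all mice, -0.15 without old HDM201 male 1, -0.04 without old vehicle male 4 and -0.03 without old vehicle male 5.

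In old HDM201 females 1 to 5 Ciita stood at 1.62, 1.64, 3.28, 2.54 and 2.16 CPM, all below the lowest old vehicle female at 3.75 CPM. The log2 fold change was -1.05 ± 0.22. In old HDM201 males 1 to 5 it stood at 6.84, 2.35, 6.63, 3.63 and 6.16 CPM against 1.27 to 4.33 CPM in old vehicle males (log2 fold change 0.74 ± 0.39). The males overlapped.

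H2-Ab1 stood at 22.3, 29.1, 33.1, 26.1 and 29.9 CPM in old HDM201 females, and the vehicle mice began at 47.3 CPM. Its log2 fold change, -1.03 ± 0.12, had the smallest SE of the 10. H2-Aa and H2-Eb1 had log2 fold changes of -0.91 ± 0.16 and -1.003 ± 0.147, and neither overlapped. In old HDM201 males H2-Ab1 stood at 78.9, 34.6, 74.2, 57.6 and 58.6 CPM, around and above the 27.7 to 64.1 CPM of the vehicle males (log2 fold change 0.36 ± 0.27).

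Cd74 stood at 75.6, 91.9, 112, 78.7 and 106 CPM in old HDM201 females, below the 141 CPM of the lowest vehicle female (log2 fold change -0.92 ± 0.13). Old HDM201 males stood at 239, 95.8, 211, 170 and 168 CPM (log2 fold change 0.43 ± 0.29). H2-DMa stood at 2.51, 3.61, 4.95, 4.23 and 3.62 CPM in old HDM201 females, with no overlap with the 5.90 to 8.11 CPM of vehicle females (log2 fold change -0.89 ± 0.18). The remaining members overlapped in females. Their log2 fold changes were -0.79 ± 0.24 for H2-DMb1, -0.74 ± 0.23 for H2-DMb2, -0.75 ± 0.41 for H2-Oa and -0.92 ± 0.26 for H2-Ob.

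Of the 10 members 6 were called lower in HDM201-treated females (Ciita, H2-Aa, H2-Ab1, H2-Eb1, Cd74 and H2-DMa), the groups of the same 6 did not overlap, and the median log2 fold change was -0.91 beside 0.0010 over all 14445 genes. Over all genes 2.9% were called lower and 4.24% were lower without overlap. The count was 1 when all 6 groups shared one estimate of spread. In males 0 members were called by edgeR or by DESeq2, 0 had an unadjusted p under 0.05 in edgeR, and the groups of 0 did not overlap. Of all 14109 genes 0.00709% were called, 1710 had an unadjusted p under 0.05 and 4.03% did not overlap. Nothing is read from the counts of members here either, because the members were selected on these values. The median over the members was 0.45 in males beside 0.014 over all genes. The old vehicle group is shared between the comparison with young mice and that with HDM201, so these comparisons are not independent.

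**Figure D3:**
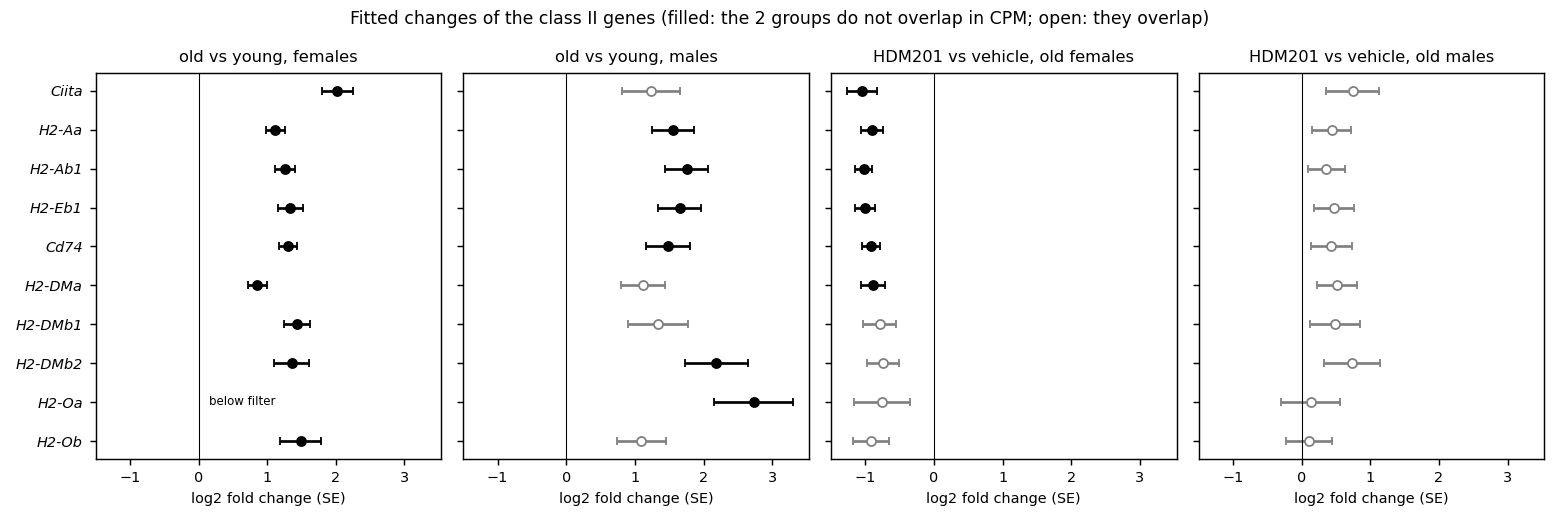
Fitted log2 fold changes (points, x axis) with their SE (bars) of the 10 class II genes in the 4 comparisons. Filled points mark genes whose groups do not overlap in CPM, 9 and 6 in the comparisons with young mice and 6 and 0 in those with HDM201 in females and males. H2-Oa was below the filter in the first.

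The difference between the sexes in the response to HDM201 was fitted as an interaction, female minus male. It lay below 0 for all 10 members, between -1.79 ± 0.47 for Ciita and -0.87 ± 0.62 for H2-Oa on the log2 scale, with a median of -1.36. For H2-Ab1 it was -1.38 ± 0.32 and for Cd74 -1.34 ± 0.34. By edgeR 0 of the 10 were called, 9 had an unadjusted p under 0.05 and 6 were called by DESeq2. Of all 14974 genes edgeR called 0.107%, and 2774 had an unadjusted p under 0.05. The DESeq2 share over all genes is not given here. For age the same term had both signs, with 7 members below 0 and 3 above it and a median of -0.27. There 0 members were called by edgeR, 0 by DESeq2 and 0 had an unadjusted p under 0.05 in edgeR. Of all 14721 genes 3.92% were called by edgeR, and 3160 had such a p. Females and males of the same age and treatment were also compared. Young vehicle females had a median log2 difference of 0.52 to young vehicle males over 9 members that passed the filter, and old vehicle females one of 0.26 to old vehicle males over 10. In young mice 0 members were called by edgeR, 5 had an unadjusted p under 0.05 and 1 was called by DESeq2. Of all 13875 genes edgeR called 10.5%, and 3830 had an unadjusted p under 0.05. In old mice 0 were called by edgeR, 0 had an unadjusted p under 0.05 and 0 were called by DESeq2. Of all 14088 genes edgeR called 18.0%, and 4738 had an unadjusted p under 0.05. The members were selected with these values known, so nothing is read from the counts of members in any of these comparisons.

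In some groups 1 mouse was lowest or highest in most of the members. Old vehicle female 4 was the lowest of its group in 9 of the 10 genes, young vehicle male 1 in 9, old vehicle male 5 in 7, old HDM201 female 1 in 7 and old HDM201 male 2 in 9. Old HDM201 male 1 was the highest in 8, and old vehicle male 4, young vehicle male 2 and old HDM201 female 3 each in 7. No young vehicle female was the lowest in more than 4 or the highest in more than 5, and no old vehicle female was the highest in more than 4. Pearson's r between 2 members over the 27 mice, on log2(CPM + 1), lay between 0.64 and 0.99 over the 45 pairs with a median of 0.84. With group means taken off it lay between 0.094 and 0.97 with a median of 0.56. Among H2-Aa, H2-Ab1, H2-Eb1 and Cd74 the lowest was 0.98 over all mice and 0.96 with group means taken off. The lowest pair in both was H2-DMb1 with H2-Oa, which has few counts, and all pairs share the libraries and their depth.

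The 8 genes outside the members whose log2(CPM + 1) was most like the mean of H2-Aa, H2-Ab1, H2-Eb1 and Cd74, out of 12764 genes with a mean of at least 1 CPM, were Thy1 (r = 0.93), Itgb7 (0.92), Kif21b (0.92), Adcy7 (0.91), Sh3bp1 (0.90), Ctss (0.90), AU020206 (0.90) and Jpt1 (0.90). With group means taken off, Adcy7 (r = 0.86), Slamf7 (0.82), Thy1 (0.81), Kif21b (0.80) and Itgb7 (0.78) led, and 4 of the 8 leading genes were shared by the rankings. Thy1 is a surface protein of T cells and stromal cells, Itgb7 an integrin subunit of lymphocytes and Slamf7 a receptor of lymphocytes and plasma cells. The likeness is over 27 mice of 6 groups.

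Companion genes of the pathway and markers of liver cell types, in 16 lists, hold 159 genes found in the counts that are not members, and these were tested with edgeR over all genes. In old females 73 of 139 tested were called, 67 higher and 6 lower, beside 31.8% of all genes. In old males 25 of 128 were called, all higher, beside 3.69%. Between young females and young males 117 were tested, so some genes passed the filter for age only with the old mice. Such genes are high in the old group by the filter itself, and nothing is read from their calls as higher. HDM201 gave 29 calls of 142 in females, 27 of them lower, beside 5.25%. In males 0 of 142 were called by edgeR, beside 0.00709% of all genes, and 1 by DESeq2. An unadjusted p under 0.05 was found there for 17 of the 142, beside 1710 of all 14109 genes. Over all genes such a p was found in 6068 of 14233 for age in females and 3007 of 13755 for age in males. For HDM201 in females it was found in 3247 of 14445. The male age count was 10 without old vehicle male 2, 6 without old vehicle male 4, 8, 16, 7 and 7 without young vehicle males 1, 2, 3 and 4. The count for HDM201 in females was 10 and 12 without old vehicle females 2 and 4, and 19, 19, 16 and 12 without old HDM201 females 1, 2, 3 and 4, and it was 5 with all 6 groups in one fit.

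Among the 15 genes of class II transcription, Irf8, a factor of myeloid and B cells, rose in old females by 1.03 ± 0.12 on the log2 scale (SE, FDR = 0.000139, edgeR), and Spib, a factor of B and plasmacytoid dendritic cells, by 2.34 ± 0.49 (FDR = 0.0034, edgeR). The RFX subunit Rfx5 rose by 0.45 ± 0.10 (FDR = 0.00602, edgeR) and the NF-Y subunit Nfyb by 0.28 ± 0.07 (FDR = 0.00685, edgeR), and 5 of the 15 were called higher in all. The RFX subunit Rfxap had a log2 fold change of 0.01 ± 0.11. In old males Spib alone was called, at 1.56 ± 0.31 (FDR = 0.0285, edgeR), a call that ended without any 1 of old vehicle males 2 and 4 and young vehicle males 1, 2, 3 and 4. HDM201 in females gave 1 call, Irf8 lower by a log2 fold change of -0.64 ± 0.13 (FDR = 0.0193, edgeR), which ended when old vehicle female 2, old vehicle female 4 or old HDM201 female 4 was left out, while Rfx5 stood at -0.17 ± 0.09 and Rfxank at -0.24 ± 0.16. In males 0 of 15 were called with HDM201 by edgeR, with 1 at an unadjusted p under 0.05 and 0 called by DESeq2.

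Of the 13 genes of peptide loading and turnover, 6 were called higher and 3 lower in old females. Cathepsin S (Ctss), which trims the invariant chain, rose by 1.27 ± 0.13 on the log2 scale (FDR = 5.1e-05, edgeR), legumain (Lgmn), an endosomal protease, by 0.82 ± 0.10 (FDR = 0.000142, edgeR), and Ifi30, which reduces disulphides of antigens, by 1.04 ± 0.19 (FDR = 0.00155, edgeR). Cathepsin L (Ctsl) fell by 0.46 ± 0.09 on the log2 scale (FDR = 0.00253, edgeR). With HDM201 in females 4 of the 13 were called lower. Ctss had a log2 fold change of -0.84 ± 0.13 (FDR = 0.00987, edgeR), and March1, a ligase that removes class II from the surface, one of -0.96 ± 0.20 (FDR = 0.0222, edgeR), which was lost without old vehicle female 2 or 4. In HDM201-treated males Ctss stood at 0.42 ± 0.31 and Ifi30 at 0.42 ± 0.23, and 0 of 13 were called by edgeR, with 2 at an unadjusted p under 0.05 and 0 called by DESeq2. Of the other genes of the class II family (H2-Eb2, H2-Ea-ps, H2-Pa and H2-Pb) 4 were found, and none passed the filter in the 4 main comparisons.

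Class I presentation and interferon-gamma targets were followed as neighbouring programmes. In old females 3 of 11 class I genes and 7 of 13 interferon-gamma targets were called higher, among them Psmb8, a subunit of the immunoproteasome, at 0.44 ± 0.08 on the log2 scale (FDR = 0.00203, edgeR) and the GTPase Igtp at 0.69 ± 0.12 (FDR = 0.00149, edgeR), which was lost with all 6 groups in one fit. The median log2 fold changes of the lists were 0.15 and 0.49. In old males 2 of 11 and 0 of 13 were called by edgeR, where 10 of the 13 had an unadjusted p under 0.05 and 6 were called by DESeq2, with medians of 0.53 and 1.25. HDM201 in females gave 1 call by edgeR in each list, with medians of -0.18 and -0.17. Of the 11 class I genes 6 had an unadjusted p under 0.05 there and 5 were called by DESeq2, and of the 13 interferon-gamma targets 3 and 1.

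Apart from Cd74 and Ciita the members lie on chromosome 17 between 34092340 and 34316674 (mm10, GENCODE), a stretch of 21 annotated genes with 8 members and 13 others. Of the others 6 passed the filter in females. Brd2, a chromatin reader, Psmb8 and Tap2, a subunit of the class I peptide transporter, were called higher in old females, at 0.33 ± 0.09, 0.44 ± 0.08 and 0.30 ± 0.07 on the log2 scale. With HDM201 in females 0 of 6 were called by edgeR, with log2 fold changes from -0.35 ± 0.09 for Tap1 (FDR = 0.0529, edgeR) to 0.01 ± 0.41 for Gm15821, with 3 at an unadjusted p under 0.05 and 2 called by DESeq2. Psmb9, which lies between H2-DMb1 and H2-Ob, stood at -0.27 ± 0.08. The medians over the others tested were 0.31 for age and -0.19 for HDM201 in females.

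Class II transcripts come from few cell types of the liver, and whole liver cannot tell fewer such cells from less RNA per cell. Every marker of the B cell, dendritic cell and Kupffer cell lists had counts in each group. Between young females and young males 5 B cell, 5 monocyte, 6 dendritic cell and 3 T and NK cell markers passed the filter. The further markers of these lists needed the old mice to pass it for age. Counts called higher with age in these lists are therefore partly set by the filter, in both sexes. Of the 8 B cell markers tested in old females 7 were called higher, led by Cd79b and Cd79a, the signalling chains of the B cell receptor, at 2.12 ± 0.23 (FDR = 7.74e-05, edgeR) and 2.35 ± 0.35 on the log2 scale (FDR = 0.000511, edgeR). The summed B cell markers stood at 3.78 to 7.24 CPM in young vehicle, 13.5 to 29.5 CPM in old vehicle and 9.79 to 12.7 CPM in old HDM201 females, so that none of these groups overlapped. With HDM201 in females 2 of 9 were called lower, among them Cd79b at -1.08 ± 0.18 (FDR = 0.00987, edgeR), while Ms4a1 stood at -0.80 ± 0.31 and was not called.

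Of the markers of Kupffer cells and macrophages, the phagocytes of liver, 10 of 12 were called higher in old females and 10 of 12 lower with HDM201. Clec4f, a receptor restricted to Kupffer cells, rose with age by 0.87 ± 0.16 on the log2 scale (FDR = 0.00154, edgeR) and had a log2 fold change of -0.96 ± 0.16 with HDM201 (FDR = 0.00987, edgeR). The HDM201 calls of Clec4f, Ctss and Cd79b were lost with all 6 groups in one fit. The complement gene C1qa stood at 1.26 ± 0.16 and -1.05 ± 0.18, and the growth factor receptor Csf1r at 1.19 ± 0.18 and -1.18 ± 0.20 in the same comparisons. The summed list stood at 320 to 456, 485 to 935 and 303 to 476 CPM in young vehicle, old vehicle and old HDM201 females. Of the markers of monocytes and their macrophages 9 of 10 were called higher with age, among them Gpnmb at 4.34 ± 0.48 (FDR = 8.72e-05, edgeR) and Ccr2 at 1.76 ± 0.26 (FDR = 0.000449, edgeR), and 3 of 11 lower with HDM201, among them Fcgr4 at -1.66 ± 0.26 (FDR = 0.00987, edgeR).

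Of the dendritic cell markers 4 of 9 were called higher with age in females, led by the integrin Itgax at 2.39 ± 0.26 (FDR = 8.54e-05, edgeR). The other age calls, Batf3, Flt3 and Bst2, were each lost without old vehicle female 2 or 4, among other settings. With HDM201 2 of 10 were called lower, Batf3 at -1.32 ± 0.30 and Bst2 at -0.36 ± 0.09. Both calls were also lost without old vehicle female 2 or 4, among other settings. Itgax stood at -0.67 ± 0.26 and Flt3 at -1.30 ± 0.44 with HDM201, and neither was called. Zbtb46, a factor of classical dendritic cells also found in endothelium, stood at 0.06 ± 0.15 with age. Of the T and NK cell markers 3 of 8 were called higher with age in females and 0 of 8 with HDM201 by edgeR, with 3 at an unadjusted p under 0.05 and 0 called by DESeq2. Of the plasma cell markers 3 of 5 rose with age, led by Jchain, the joining chain of secreted antibodies, at 3.13 ± 0.20 (FDR = 2.48e-06, edgeR), and 0 of 5 were called with HDM201 by edgeR, with 1 at an unadjusted p under 0.05 and 0 called by DESeq2. Hepatocyte markers gave 1 call of 7 with age in females, Cyp2e1 lower, and 0 of 7 with HDM201 by edgeR, with 2 at an unadjusted p under 0.05 and 1 called by DESeq2. Alb stood at 0.11 ± 0.11 and 0.10 ± 0.13. What part the makeup of the liver had in the class II values was not tested.

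In old males edgeR called 4 of 7 B cell, 3 of 12 Kupffer cell and macrophage, 5 of 9 monocyte, 2 of 7 dendritic cell and 2 of 4 T and NK cell markers higher. Among the calls that leaving out any 1 mouse did not end were Cd79a at 2.15 ± 0.26 (FDR = 0.00379, edgeR), the lysozyme Lyz2 at 1.81 ± 0.27 (FDR = 0.00977, edgeR), Trem2, a receptor of lipid-laden macrophages, at 3.12 ± 0.45 (FDR = 0.00831, edgeR) and Jchain at 2.77 ± 0.28 (FDR = 0.00177, edgeR). A block for the replicate number ended the calls of Cd79a and Trem2. With HDM201 in males 0 markers were called by edgeR. DESeq2 called 1 plasma cell marker, and of the 5 plasma cell markers tested 3 had an unadjusted p under 0.05 in edgeR, with a median log2 fold change of 1.31. The summed B cell markers stood at 11.7 to 21.6 CPM in vehicle and 11.5 to 26.4 CPM in HDM201 mice. Whether these list changes differ between the sexes was tested gene by gene as the interaction. There 0 of 146 companion genes were called for HDM201 by edgeR, with 42 at an unadjusted p under 0.05 and 10 called by DESeq2. Of all 14974 genes 2774 had such a p.

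**Figure D4:**
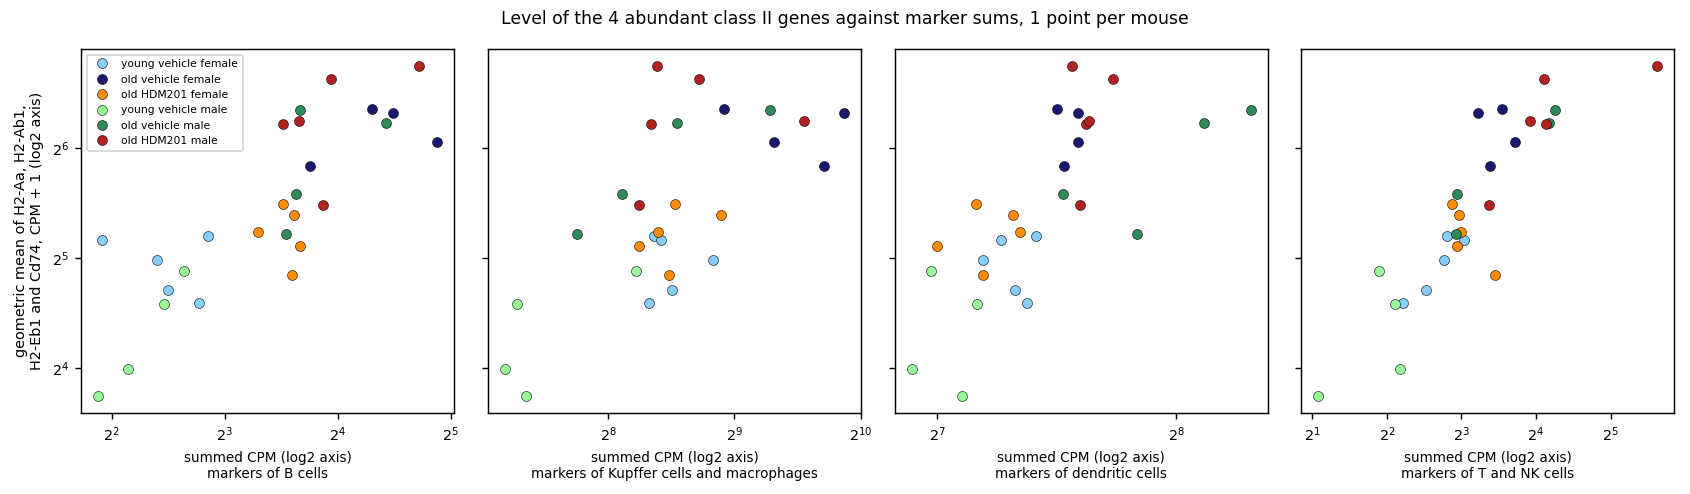
Level of H2-Aa, H2-Ab1, H2-Eb1 and Cd74 in each mouse (geometric mean of CPM + 1, y axis, log2) against the summed CPM of markers of B cells, Kupffer cells and macrophages, dendritic cells, and T and NK cells (x axes, log2), colored by group. Over the 27 mice r of the log2 values was 0.83, 0.69, 0.72 and 0.88, and 0.42, 0.47, 0.37 and 0.65 after group means were taken off. Among lists not drawn, r was 0.68 and 0.53 for stellate cells and 0.85 and 0.42 for monocytes and their macrophages. It was 0.16 and -0.0051 for endothelial cells and 0.18 and -0.13 for hepatocytes.

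The 2 males without counts have FPKM, and 1 of them stood above every other male in all 10 members. In old vehicle male 1 Cd74 was at 1601 FPKM, against 59.5 to 147 FPKM in the other 4 old vehicle males. H2-Ab1 was at 434 FPKM against 22.1 to 53.8 FPKM, and Ciita at 8.83 FPKM against 0.187 to 0.650 FPKM. All 10 members were above the other 4 mice, by 9.82-fold for H2-Eb1 to 56.8-fold for H2-DMb2 over their median.

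In the same mouse the B cell markers summed to 183 FPKM against 5.22 to 9.96 FPKM, with Ms4a1, the B cell antigen CD20, at 28.8 FPKM against 0.234 to 0.494 FPKM and Cd79a at 42.5 FPKM against 1.34 to 2.24 FPKM. Kupffer cell and macrophage markers summed to 1017 FPKM against 130 to 380 FPKM, T and NK cell markers to 100.2 FPKM against 10.6 to 32.3 FPKM, and cholangiocyte markers to 226 FPKM against 32.3 to 49.5 FPKM. Alb, the main secreted protein of hepatocytes, was lower, at 26094 FPKM against 33572 to 54554 FPKM. Young vehicle male 5 was above the other 4 young males in 8 of the 10 members, with Cd74 at 88.1 FPKM against 22.3 to 57.4 FPKM, and its Kupffer cell and macrophage markers summed to 391.8 FPKM against 75.1 to 166 FPKM. The part of these cells in either mouse was not tested. The authors report leaving a young male out of their analysis for an open wound and a suspected infection. Whether that mouse was young vehicle male 5 is not stated.

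With deposited FPKM the sign of the male comparison with HDM201 depended on old vehicle male 1. Over all mice, on the log2(FPKM + 0.1) scale, the median of the members was -0.16 in males, and over the mice that have counts it was 0.60, beside 0.45 from counts. In the comparison of old with young males the median was 2.08 with all mice and 1.52 over those with counts. These scales were chosen after the data had been seen. The female medians on the same scale were 1.38 for age and -0.89 for HDM201.

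**Figure D5:**
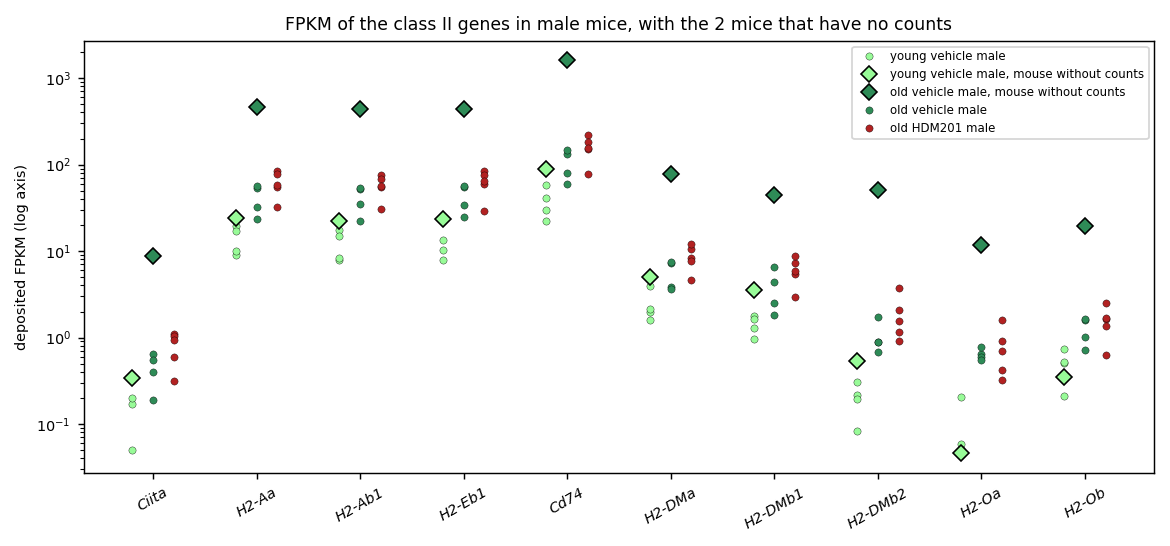
Deposited FPKM (y axis, log scale) of the 10 class II genes in young vehicle, old vehicle and old HDM201 males, 1 point per mouse, with diamonds for the 2 mice that have no counts; 1 empty value of H2-Oa in a young male is not drawn. Old vehicle male 1 lies above every other male for each gene, from 8.83 FPKM for Ciita to 1601 FPKM for Cd74.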

How the data were processed

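Polyadenylated RNA of whole mouse liver was sequenced. The authors aligned reads in 2 passes with STAR to mm10 and deposited raw counts per gene from HTSeq and FPKM from Cufflinks; whether counting used strand and the tool versions are not given in the sources used here. Counts cover 27 mice and FPKM 29, and no column of the tables was left out (0). Groups and mouse numbers follow the labels. Nothing says more than that the samples are separate mice, with 16485900 to 23570458 counts each, and floors cover counting error only.

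The quasi-likelihood F test of edgeR 4.0.16 (R 4.3.3) was run on the mice of the groups compared, after TMM scaling and the filterByExpr filter (at least 10 counts, total at least 15), with Benjamini-Hochberg FDR over all genes tested and a threshold of 0.05. A gene is called past that threshold. CPM were scaled by TMM over the 27 mice, and correlations used log2(CPM + 1). The fit was tested on simulated data with the same spread for all genes and with changes in well-counted genes only. That test does not cover members with few counts or groups as spread as the males. The members and gene lists were chosen with earlier results of these data known. No p-value is printed for a single member, and counts of members called or under a p threshold are a description from which nothing is read. Named are all members, in each list and comparison at most 4 called genes with the smallest FDR, a fixed set of defining markers (1 of them is not reported here) and class II activators, the genes between the outermost members on chromosome 17, and the 8 genes most like the 4 abundant members in each ranking. Alternatives were RLE size factors, DESeq2 1.42.0, no filter, all 6 groups in one fit, a replicate block, each mouse left out, and FPKM with pseudocounts of 0.1 and 1, some rescaled to a common sum per mouse.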

Additional observations from a re-analysis of the deposited data

Results flagged for a closer look

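H2-DMa in young vehicle male 2 stood at 4.29 CPM, far above the other 3 young vehicle males, and was the only far mouse among 60 combinations of member and group looked at, where chance marks about 1 in 20. Bst2, a marker of plasmacytoid dendritic cells that other cells also express, had an interaction of sex and age (female minus male) of -0.78 ± 0.18 on the log2 scale (FDR = 0.0267, edgeR). That call ended when any 1 of old vehicle females 1, 2 and 4, old vehicle male 4 and young vehicle male 3 was left out.

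Old vehicle male 1, which has FPKM and no counts, stood above the other 4 old vehicle males in all 10 members. Its values were 434 FPKM for H2-Ab1, 469 FPKM for H2-Aa, 437 FPKM for H2-Eb1, 1601 FPKM for Cd74 and 8.83 FPKM for Ciita. H2-DMa was at 78.4 FPKM, H2-DMb1 at 43.9 FPKM, H2-DMb2 at 50.5 FPKM, H2-Oa at 11.7 FPKM and H2-Ob at 19.7 FPKM.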

How the results depend on the processing

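Members called in old against young males numbered 10 with all 6 groups in one fit and 0 to 8 with 1 mouse left out, and those called with HDM201 in females 1 and 4 to 7. In old females 9 to 10 were called with 1 mouse left out, and with HDM201 in males 0. The median log2 fold change of the members ranged with 1 mouse left out from 1.23 to 1.45 and 1.31 to 1.73 for age in females and males, and from -1.002 to -0.84 and 0.26 to 0.63 for HDM201. With FPKM rescaled to a common sum (pseudocount 0.1) it was 1.52, 2.08, -1.25 and -0.74 in that order, and -0.67 for HDM201 in males with a pseudocount of 1. With FPKM as deposited it was 2.08 for age and -0.16 for HDM201 in males, and with median ratios 1.99 and -0.20. Over the mice with counts, that is without old vehicle male 1, the HDM201 median in males was 0.60 with FPKM as deposited and 0.49 with median ratios. It was 0.02 and 0.03 with rescaled FPKM and the pseudocounts of 0.1 and 1, where the male age median with the latter was 0.98. The FPKM summed to between 690769 and 6.01e+06 per mouse, while FPKM per CPM of H2-Ab1 lay between 0.798 and 0.997. Rescaling to a common sum therefore shifted the mice unequally, which limits the medians with rescaled FPKM.

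Companion genes called for age in males numbered 46 with no filter, 70 with all 6 groups, 53 with DESeq2 and 6 to 33 with 1 mouse left out. For HDM201 in females they were 5 with all 6 groups and 10 to 28, for HDM201 in males 1 with no filter, 1 with DESeq2 and 0 with any mouse left out, and for age in females 61 to 77. Between the sexes they were 16 to 39 in young and 11 to 32 in old mice. For the interaction with age they were 4 with no filter, 3 with all 6 groups, 5 with DESeq2 and 0 to 3, and for that with HDM201 1, 10 with DESeq2 and 0 to 2. The cause was not tested.

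Mice of different groups share only a replicate number, and the deviations of same-numbered mice correlated at -0.24 to 0.24. With the replicate block 2 companion genes were called for age in males, 14 between the sexes in old mice and 0 for the interaction with age, and 9, 4, 5 and 0 members in the 4 main comparisons. Among the male age calls that the block ended were Cd79a, Trem2, Bst2, Spp1, C1qa, Ctss, Lgmn, Itgax, Ms4a1, Spib and Psmb8. Among the HDM201 calls in females that it ended were Epcam, Bank1, Batf3, Bst2, Ifi30, Igtp, Lgmn and Lyz2. These are not all of the calls lost. The call of Bst2 for the interaction with age ended too.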

Other observations

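Of the 5 bile duct markers tested with HDM201 in females 2 were called higher. Spp1, a secreted phosphoprotein of bile duct cells, rose by 0.93 ± 0.16 on the log2 scale (FDR = 0.0104, edgeR) and Epcam, an adhesion molecule of the same cells, by 0.96 ± 0.20 (FDR = 0.0229, edgeR). The call of Spp1 ended with all 6 groups in one fit, and that of Epcam when old vehicle female 2, old vehicle female 4 or old HDM201 female 4 was left out. The summed list stood at 49.6 to 71.2 CPM in old vehicle and 84.0 to 150.1 CPM in old HDM201 females.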
